A study of Mus musculus with 20 samples.

Results

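The genes described here were higher in β-catenin KO than in control nephron progenitor cells (NPCs) at the high dose of CHIR. Their mean in control cells at the high dose stayed within a window around that at the low dose, and was lower for most of them. The genes were chosen by measured values. A gene was kept when its mean normalized count over the 20 libraries was at least 50, when the CTRL mean at 5 µM CHIR was between 0.67 and 1.5 times the CTRL mean at 1.25 µM, and when the lowest β-catenin KO library at 5 µM was at least 1.5 times the highest CTRL library at 5 µM. The rule found 81 of 31130 genes, of which 12488 had a mean of at least 50. Only 22 of the 81 had a gene symbol, and 59 were known by their Ensembl identifier alone. The rule also sets aside 5 genes and some gene families by symbol. This removed 0 of the members with a symbol and could not be applied to the other 59.

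Cells were primary NPCs from E16.5 mouse kidneys of the genotype Cas9-eGFP, transfected with guide RNAs and mCherry mRNA and sorted as mCherry+ cells. The methods name, for knockouts, a Rosa26 Cas9-EGFP line crossed with SWR/J or mated to a Ctnnb1 allele line, without saying which gave these libraries. All groups, controls included, thus carry Cas9-eGFP and went through transfection and sorting. CTRL cells received guides against GFP, β-catenin KO cells guides against Ctnnb1, α-catenin KO cells guides against Ctnna1, and QCKO cells guides against 4 cadherin genes (Cdh2, Cdh3, Cdh4 and Cdh11). After a knockout period of 48 h, cells spent 24 h in NPEM, the nephron progenitor medium, with 1.25 µM (low) or 5 µM (high) CHIR, an inhibitor of the kinase GSK3β. There were 3 CTRL and 3 β-catenin KO libraries per dose, from dates 1, 2 and 3. The dates are those in the sample titles, which do not say what step they mark. There were 2 α-catenin KO libraries (dates 1 and 3) and 2 QCKO libraries (dates 2 and 3) per dose. Libraries held 18124772 to 28472412 assigned reads. Knockouts were made in pools of cells, so a library can hold cells that kept the gene.

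β-Catenin has a pair of roles in these cells. In the nucleus it works with TCF/LEF factors to switch on Wnt target genes, and inhibition of GSK3β keeps it from being degraded. At the membrane it links cadherins, the proteins by which cells hold on to each other, to α-catenin and the actin cytoskeleton. Low Wnt activity goes with self-renewal of NPCs, and strong activity with their induction to form nephrons. The α-catenin KO and QCKO groups lack parts of the membrane complex and keep β-catenin itself.

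The guides are shown for the part of Ctnnb1 they were designed against. Ctnnb1 lies on chromosome 9 at chr9:120933400-120960507 (GRCm38.p6), and the study lists 4 guide names for it with 3 distinct sequences, each of 20 bases. Guide 1 is assigned to exon 2 and guide 3 to exon 3. The third sequence is listed under both guide 5, assigned to exon 3, and guide 6, assigned to exon 6.
Guide 1: atgagcagcgtcaaactgcg
Guide 3: agccaagcgctggacattag
Guides 5 and 6: gagattatgcagtgtcgtga

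Before the results, the β-catenin KO libraries must be told apart by date. Axin2, a Wnt target that is no member, was at 39.3, 71.5 and 61.4 normalized counts in CTRL low CHIR on dates 1, 2 and 3. In β-catenin KO low CHIR it was at 14.0 on date 1, but at 559.7 on date 2 and 383.6 on date 3. In high CHIR, CTRL libraries were at 357, 435 and 391, and β-catenin KO libraries at 18.5, 743 and 687. Axin2 was therefore below CTRL on date 1 and above it on dates 2 and 3, at both doses. Lef1, the gene of a TCF/LEF factor, was at 62.3, 659.7 and 532 in β-catenin KO low CHIR, against 62.5 to 72.6 in CTRL. Wnt4, another Wnt-responsive gene, was at 30.1, 831 and 634 there, against 41.1 to 72.6 in CTRL. In high CHIR these genes went the other way from Axin2 on dates 2 and 3. Wnt4 was at 252, 2387 and 1200 in β-catenin KO and at 5286, 4156 and 5401 in CTRL, and Lef1 was at 93.6, 677 and 1020 against 1118, 948 and 1465, so each was below the CTRL library of its date on all 3 dates. Ctnnb1 itself was not analysed here, since no symbol was paired with its row. β-Catenin KO is therefore the label of these libraries, and whether the cells of dates 2 and 3 lacked β-catenin was not measured here. The members' levels against CTRL are therefore also given by date. The α-catenin KO libraries went with their label: Ctnna1 was at 3564 to 3790 there and at 5817 or more in all other libraries.

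NPC identity was checked by 6 markers, Six2, Cited1, Eya1, Osr1, Meox2 and Wt1, each present in CTRL low CHIR with a mean of 855 or more. Their summed normalized count was 12877 to 18271 in CTRL low CHIR and 11029 to 20732 in β-catenin KO low CHIR, which overlap. In high CHIR it was 1224 to 1921 in CTRL and from 5047 on date 2 to 10292 on date 1 in β-catenin KO, so NPC markers were higher in the same libraries in which the member genes were chosen as higher. The markers' part in the result was not tested. Other cell types were not checked, since too few of their markers had an identifier. These were 5 of 10 for ureteric epithelium, 1 of 10 for stroma and 0 of 6 for leukocytes. In bulk RNA, fewer cells of a type and less RNA per cell cannot be told apart.

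In low CHIR, whose β-catenin KO libraries entered the choice only through the mean over 20 libraries, part of the 81 genes was again higher in the libraries labelled β-catenin KO. All 3 β-catenin KO libraries lay above all 3 CTRL libraries for 36 of the 81 genes (44.4%), against 5.25% of the 12488 genes. They lay below for 0 of the 81, against 5.76%. The median ratio of group means was 1.77 over the 81 genes and 0.981 over the 12488. β-Catenin KO was above CTRL on 3 of 3 dates for 56 of the 81 genes, against 15.7% of all genes. The CTRL low CHIR mean entered the rule through the CTRL ratio, so this comparison is not fully independent of the choice.

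A second comparison used no library that chose the members, apart from the mean over 20 libraries. β-Catenin KO low CHIR was set against the 4 α-catenin KO and QCKO low CHIR libraries, a comparison added after the data were seen. The 3 β-catenin KO libraries lay above all 4 others for 36 of the 81 genes (44.4%), against 7.27% of the 12488 genes. They lay below for 1 of the 81, against 9.20%. The median log2 difference over the 81 genes was 0.78, against -0.00 over the 16691 genes tested. It was 0.78 in the comparison with CTRL too, and 80 and 78 of the 81 genes had a positive difference against CTRL and against the adhesion knockouts. The libraries at both doses carry the same dates, so they may not come from separate cultures.

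**Figure D1:**
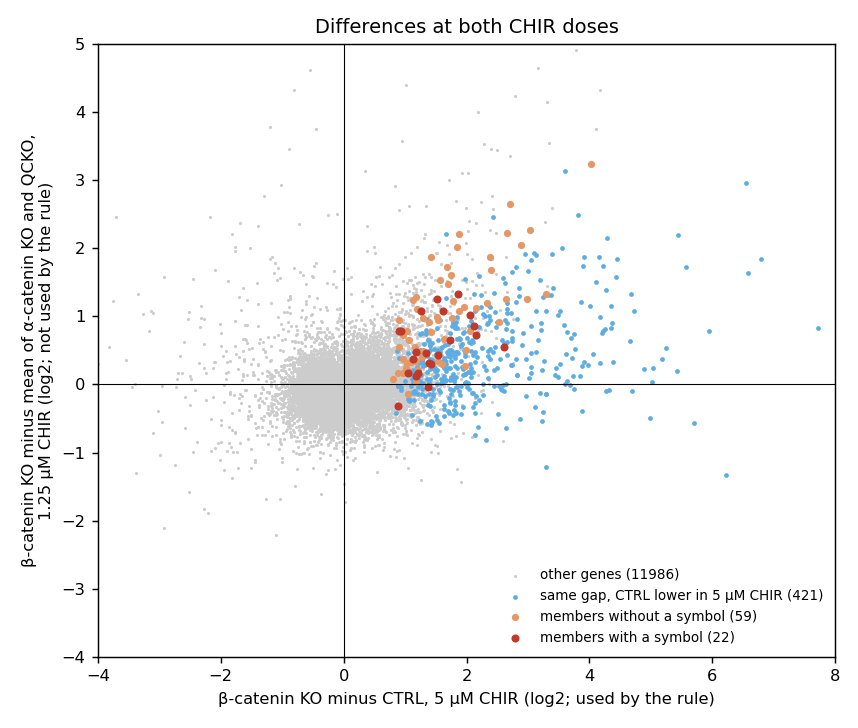
Each point is a gene with a mean of at least 50; the x axis is the log2 difference between β-catenin KO and CTRL in 5 µM CHIR, which the rule used, and the y axis the log2 difference between β-catenin KO and the mean of α-catenin KO and QCKO in 1.25 µM CHIR. The 22 members with a symbol (red) and 59 without (orange) lie mostly above 0 on the y axis, 78 of 81 in all; 421 genes with the same gap that were lower in CTRL at 5 µM are blue, and 11 genes fall outside the axes.

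Single genes passed the test less often, with 2 or 3 libraries a group. The test was limma on log2(normalized count + 1), with Benjamini-Hochberg adjustment over 16691 genes, and calls needed an adjusted p below 0.05 with a log2 difference larger than 0.5. Against CTRL in low CHIR, 1 of the 81 genes was called higher, against 0.0659% of all genes tested, and 0 were called lower, with 45 of the 81 at an unadjusted p under 0.05, against 6.86% of all genes. With the date as a block, 8 of the 81 were called higher, against 0.443% of all genes. Against the adhesion knockouts, 4 of the 81 were called higher, against 0.144% of all genes, and 19 with the block, against 0.905%. All members called without the block were among those called with it. On reads recovered from the normalized counts, edgeR called 1 member against CTRL (0.0779% of all genes) and 10 against the adhesion knockouts (0.623%), and DESeq2 called 18 (1.09%) and 26 (1.95%).

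The gene called in both comparisons was ENSMUSG00000001025, which has no symbol here. It was at 559.6, 413 and 239.2 normalized counts in CTRL low CHIR and at 2299.8, 1958 and 1590.3 in β-catenin KO low CHIR. The groups did not overlap, and the log2 difference was 2.34 ± 0.36 (SE; limma, adjusted p = 0.0199). In α-catenin KO and QCKO low CHIR it was at 702, 426, 419.9 and 226, and the log2 difference of β-catenin KO from these was 2.23 ± 0.34 (adjusted p = 0.0158). Leaving out 1 library ended the call against CTRL for β-catenin KO on date 2 or 3 and for CTRL on date 2 or 3, each with 0 members called. A fit of only the groups compared also ended the call, against CTRL and against the adhesion knockouts. ENSMUSG00000023800, also without a symbol, was at 175, 164 and 118 in β-catenin KO low CHIR and between 25.2 and 58.8 in all other low CHIR libraries. Its log2 difference from the adhesion knockouts was 1.86 ± 0.31 (limma, adjusted p = 0.0257), and against CTRL limma called it with the block (adjusted p = 0.0369) but not without.

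Among the members with a symbol, Paqr7, the gene of a membrane progestin receptor, was called against the adhesion knockouts. It was at 242, 216 and 159 in β-catenin KO low CHIR, at 111 and 85.7 in α-catenin KO and at 91.1 and 94.5 in QCKO. The groups did not overlap, with a log2 difference of 1.08 ± 0.19 (limma, adjusted p = 0.0353). CTRL low CHIR was at 125, 135 and 104, also below all 3 β-catenin KO libraries, but the log2 difference of 0.74 ± 0.21 did not pass by limma (adjusted p = 0.322), while DESeq2 called it (adjusted p = 0.0457). The call of Paqr7 against the adhesion knockouts was lost with no filter on low values, with only the groups compared and without any one of the 7 libraries compared. Over all members, leaving out β-catenin KO on date 2 or 3 or α-catenin KO on date 3 left 0 members called, against 0.00599% to 0.0180% of all genes. Leaving out α-catenin KO on date 1 or either QCKO library left 1, against 0.0120% to 0.0479%.

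Fmn1 encodes a formin, a protein that builds unbranched actin filaments. It was at 58.9, 75.8 and 64.6 in CTRL low CHIR and at 185, 181 and 185 in β-catenin KO low CHIR. The log2 difference from CTRL was 1.46 ± 0.29 (adjusted p = 0.11 by limma, 0.0159 with the block). Tpm1 encodes tropomyosin, which lies along actin filaments. It was at 2518, 2292 and 2270.5 in CTRL low CHIR and at 3977, 5549 and 4796 in β-catenin KO low CHIR, with a log2 difference of 1.00 ± 0.22 (adjusted p = 0.161 by limma, 0.0413 with the block). By limma both genes were thus called higher than CTRL with the block and not without it. DESeq2 without a block called both (adjusted p = 0.000679 for Fmn1 and 0.00457 for Tpm1), and edgeR called neither.

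Tgfb2 encodes a secreted ligand of the TGF-β family. It was at 474, 354 and 356 in CTRL low CHIR and at 864, 923 and 576 in β-catenin KO low CHIR, without overlap. Against CTRL it did not pass by limma with or without the block (log2 difference 0.98 ± 0.24, adjusted p = 0.231 without), and DESeq2 called it (adjusted p = 0.011). Against the adhesion knockouts, at 504, 333, 344 and 312, the log2 difference was 1.07 ± 0.22 (adjusted p = 0.0697 by limma, 0.0238 with the block, 0.0489 after quantile normalization). It was called in that comparison by edgeR (adjusted p = 0.033) and DESeq2 (0.000667). Ctsz, a lysosomal cysteine cathepsin, was at 2084, 1625 and 1665 in β-catenin KO low CHIR and at 949.7 to 1121 in the adhesion knockouts. In that comparison limma called it with the block (adjusted p = 0.0445) but not without (0.0772), edgeR called it at an adjusted p of 0.0403 and DESeq2 at 0.00189. Its CTRL libraries at 1009, 1645 and 1121 overlapped β-catenin KO.

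**Figure D2:**
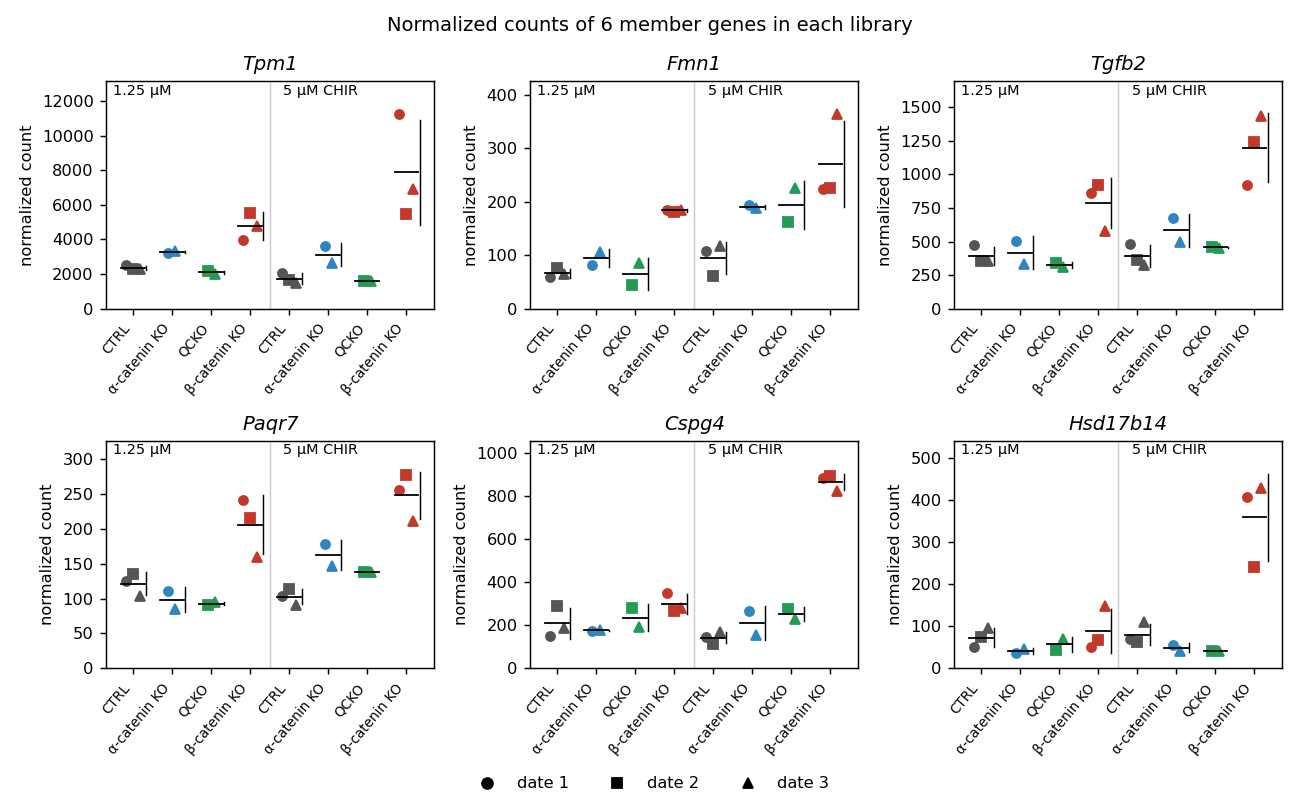
Normalized count (y axis) of 6 member genes in each library, by group (x axis), with 1.25 µM CHIR left and 5 µM CHIR right of the grey line; horizontal bars are group means, vertical lines 1 SD, and marker shape gives the date. Tpm1, Fmn1, Tgfb2 and Paqr7 were above CTRL in β-catenin KO at both doses, while Hsd17b14 overlapped CTRL at 1.25 µM.

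The levels of the members in low CHIR were also compared date by date. The median ratio of β-catenin KO to CTRL of the same date over the 81 genes was 1.95 on date 1, 1.55 on date 2 and 1.504 on date 3. At least 1.5 times CTRL were 61 of the 81 genes on date 1, 42 on date 2 and 41 on date 3, against 12.7%, 11.5% and 7.17% of all genes. Above CTRL at any ratio were 76, 61 and 78 of the 81 on dates 1, 2 and 3, against 46.7%, 49.3% and 47.3% of all genes. Among the 22 members with a symbol, 14 were above CTRL on date 2, with a median ratio of 1.23. With the date 1 library as the sole β-catenin KO low CHIR library, 6 of the 81 genes were called higher and 0 lower than CTRL, against 0.252% of all genes higher. Against the adhesion knockouts, 8 were called higher and 0 lower, against 0.438% higher. Of all genes, these fits called 177 and 203 lower, more than the 42 and 73 higher. That lone library is assumed to vary like the other groups. Ece1, the endothelin-converting enzyme, was called in both of these fits (adjusted p = 0.0353 and 0.0334 by limma). It was at 2115 on date 1 and at 889 and 1091 on dates 2 and 3, so on date 2 it was below the CTRL library at 925.

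For comparison, 421 genes had the same gap between β-catenin KO and CTRL in high CHIR but were lower in CTRL at the high dose than the window allows. Their median ratio to CTRL in low CHIR was 1.67 on date 1, 1.13 on date 2 and 1.06 on date 3. β-Catenin KO was highest on date 1 in low CHIR for 332 of these 421 genes (78.9%) and for 38 of the 81 members (46.9%), against 36.7% of all genes. Without the date 1 library the median log2 difference from CTRL was 0.07 over the 421 genes and 0.61 over the 81. A further 13 genes had the same gap and were higher in CTRL at the high dose than the window allows. Of these, 12 lay above all CTRL libraries in all 3 β-catenin KO low CHIR libraries, and their median ratio to CTRL was 3.69, 3.98 and 3.55 on dates 1, 2 and 3, above that of the members on each date. The difference between the gene sets was not tested, and the CTRL low CHIR mean that separates them enters these ratios.

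**Figure D3:**
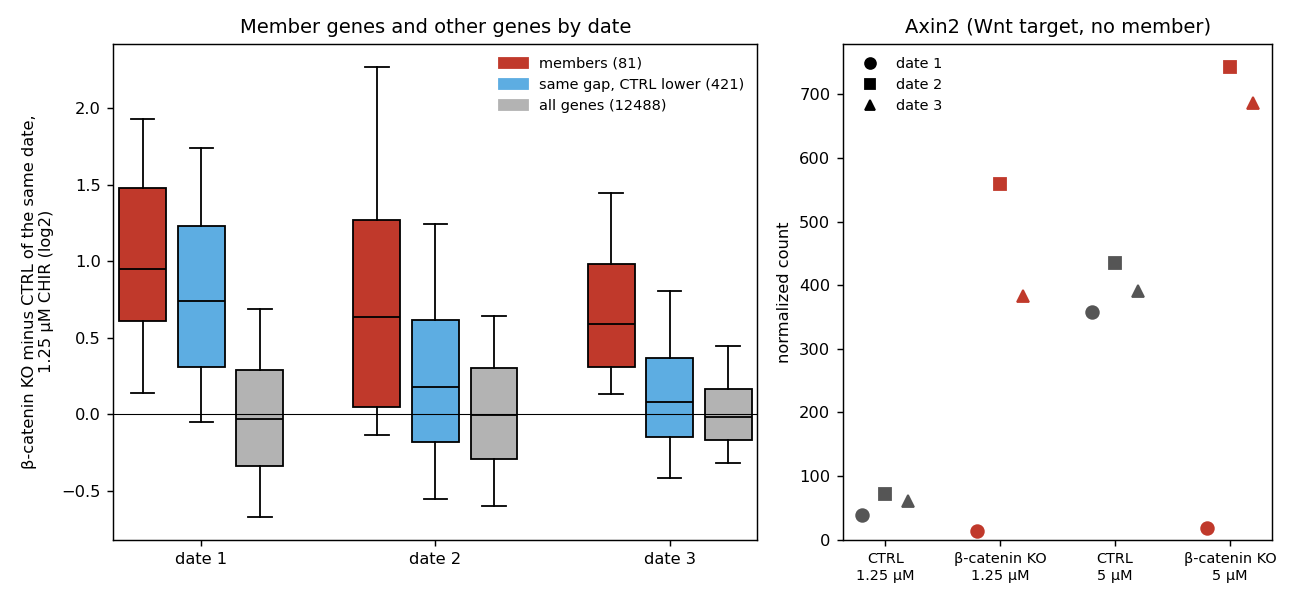
Left, log2 difference between β-catenin KO and CTRL of the same date in 1.25 µM CHIR for the 81 members, the 421 genes with the same gap that were lower in CTRL at 5 µM, and the 12488 genes; boxes are quartiles with the median, whiskers the 10th to 90th percentile of genes. Right, the normalized count of Axin2 in CTRL and β-catenin KO libraries; member medians are above 0 on each date, while Axin2 in β-catenin KO is low on date 1 and high on dates 2 and 3.

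In high CHIR the levels of β-catenin KO against CTRL are what chose the genes and are given with no test. Group means of β-catenin KO were 1.74 to 17.3 times those of CTRL, with a median of 2.75. By date the median ratio was 2.41, 2.94 and 2.82 on dates 1, 2 and 3, so date 1 had the lowest median here and the highest in low CHIR. Just inside the gap, the members with a symbol were Lifr, Ctsz and Cercam at 1.59, 1.59 and 1.57 times. Just outside were Dusp3, Sh3bp4 and Pign at 1.498, 1.497 and 1.496 times. In the window on CTRL the members were not spread evenly. Of the 81, 64 were lower in CTRL at the high dose than at the low dose, against 50.7% of all genes. The median ratio was 0.778, against 0.994 over all genes. The label of genes that do not respond to CHIR in control cells thus holds only as wide as the window.

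Ratios to CTRL were larger in high than in low CHIR for 77 of the 81 genes, against 54.4% of all genes, and the β-catenin KO mean itself was larger in high CHIR for 72, against 57.0%. All 3 β-catenin KO high CHIR libraries lay above all 3 β-catenin KO low CHIR libraries for 27 of the 81 genes, against 4.94% of all genes. The choice by high values in the same libraries favours all 3 of these counts. Cspg4, a proteoglycan of the cell surface, had the widest gap. It was at 146, 114 and 168 in CTRL high CHIR and at 886, 891 and 823 in β-catenin KO high CHIR. In low CHIR it was at 152, 290.3 and 186 in CTRL and at 350.3, 265 and 280.3 in β-catenin KO, which overlapped. Hsd17b14, a dehydrogenase of the steroid-metabolizing family, was at 408, 242 and 430.2 in β-catenin KO high CHIR and at 61.9 to 109.7 in CTRL high CHIR. In low CHIR it was at 51.6, 67.0 and 148, against 50.0, 73.7 and 95.3 in CTRL, with a log2 difference of 0.18 and a 95% interval from -0.63 to 0.99. Its higher level was measured at the high dose, and the interval at the low dose is wide.

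**Figure D4:**
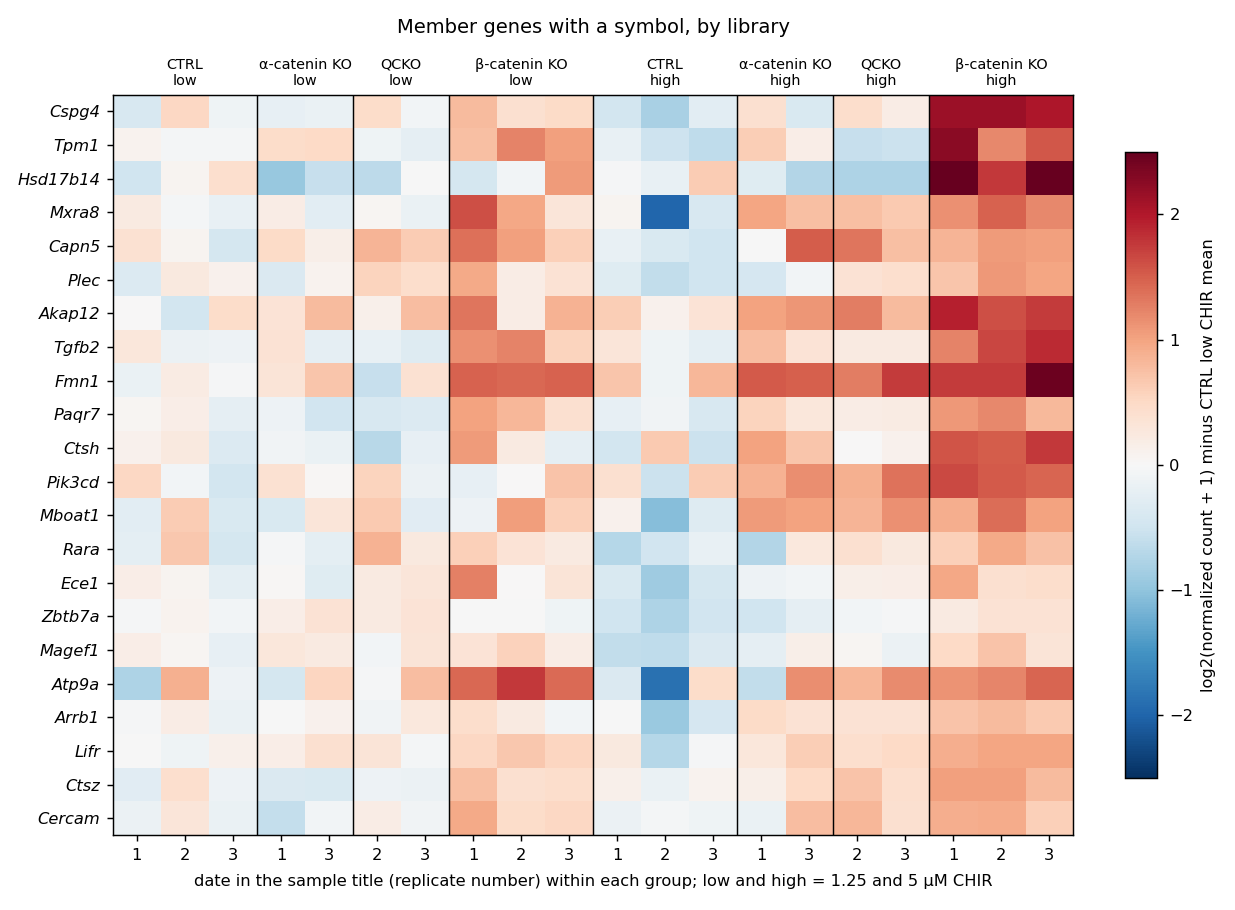
Log2(normalized count + 1) of the 22 members with a symbol in each of the 20 libraries, minus the gene's CTRL low CHIR mean; rows are genes in the order of the gap used to choose them, columns are libraries by group and date, and red is higher. All rows are red in β-catenin KO high CHIR, as the rule requires relative to CTRL high CHIR, and the low CHIR columns of β-catenin KO differ between genes.

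By role, the members with a symbol fell into a few groups, which were formed after the members were known. The cytoskeletal and scaffold genes were Tpm1, Fmn1, Plec and Akap12. Plec encodes plectin, a linker of intermediate filaments, and was at 2225, 1309 and 1469 in β-catenin KO low CHIR against 903, 1354 and 1242 in CTRL, which overlapped. Akap12 encodes a scaffold that holds protein kinase A; it was at 732, 329.8 and 528 against 289, 209 and 396, and was higher on each date although the groups overlapped. The surface proteins were Cspg4 and Mxra8, the latter with immunoglobulin domains. Mxra8 was at 3295, 2089 and 1328 in β-catenin KO low CHIR against 1256, 1042 and 943 in CTRL, without overlap, and its log2 difference of 0.96 ± 0.39 did not pass (limma, adjusted p = 0.656). Cercam was at 455, 326 and 339.5 against 214, 291 and 211, without overlap (log2 difference 0.64 ± 0.24, limma adjusted p = 0.619). The CTRL high CHIR libraries of Mxra8 spread from 271 on date 2 to 1124 on date 1. The date 2 CTRL high CHIR library was the lowest of its group for 38 of the 81 genes (46.9%), against 44.2% of all genes, and for 15 of the 22 with a symbol.

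The genes of signalling were Tgfb2, Lifr, Paqr7, Rara, Arrb1 and Pik3cd. Lifr encodes the receptor of leukemia inhibitory factor and was at 1570.1, 1748 and 1599 in β-catenin KO low CHIR against 1083, 1011 and 1202 in CTRL. The groups did not overlap, and the log2 difference of 0.58 ± 0.20 did not pass (limma, adjusted p = 0.523). Rara, a retinoic acid receptor, was at 147, 122.9 and 113 against 82.1, 156 and 70.9, and overlapped. Arrb1, a β-arrestin that binds activated receptors, and Pik3cd, a catalytic subunit of PI 3-kinase, had log2 differences from CTRL in low CHIR of 0.20 and 0.17. Their 95% intervals ran from -0.25 to 0.65 and from -0.58 to 0.92.

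The proteases were Ctsz, Ctsh, Capn5 and Ece1. Ctsh, another lysosomal cathepsin, was at 139, 133 and 158 in β-catenin KO high CHIR, but at 96.7, 54.0 and 39.2 in low CHIR, where CTRL was at 49.1, 54.2 and 36.0. Capn5, a calpain, was at 92.4, 72.0 and 53.6 in β-catenin KO low CHIR against 45.5, 36.8 and 25.4 in CTRL, without overlap (log2 difference 1.00 ± 0.35, limma adjusted p = 0.58). Of the genes that act on lipids, Atp9a, a flippase-family ATPase, was at 136, 171 and 134 in β-catenin KO low CHIR and at 28.6, 93.2 and 45.5 in CTRL. Its log2 difference of 1.54 ± 0.56 did not pass (limma, adjusted p = 0.587). Mboat1, a lysophospholipid acyltransferase, was at 152, 344 and 251 against 137, 258 and 127, higher on each date with overlap between groups.

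Zbtb7a, the gene of a zinc-finger transcription repressor, was at 233, 236 and 218 in β-catenin KO low CHIR and at 233, 252 and 224 in CTRL, with a log2 difference of -0.05 and a 95% interval from -0.37 to 0.28. It was the gene with the lowest ratio to CTRL in low CHIR among the members, at 0.968. In high CHIR it was at 277, 303 and 302 in β-catenin KO and at 168, 139 and 169 in CTRL. Its CTRL ratio of 0.671 was close to the edge of the window. Magef1, of the MAGE family, was at 175, 205 and 157 in β-catenin KO low CHIR and at 155, 142 and 119 in CTRL, just without overlap.

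Whether the members respond to CHIR was also measured in cells that keep β-catenin and lack parts of the adhesion complex. The rule used these libraries only through the mean over 20 libraries. From low to high CHIR in α-catenin KO, 0 of the 81 genes were called higher and 1 lower, against 1.53% and 1.82% of all genes. In QCKO, 1 was called higher and 0 lower, against 1.82% and 2.13%. With the block, 2 were called higher in QCKO, against 3.61%. At an unadjusted p under 0.05 were 11 of 81 in α-catenin KO and 6 of 81 in QCKO, against 14.2% of all genes in each. The background holds all genes, also those that respond to CHIR in CTRL, while the window limited the CTRL response of the members. The members were not compared with other genes inside the window. The median log2 differences over the 81 genes were 0.16 and 0.17, with a median 95% interval of ± 0.87 per gene. Over the 421 genes lower in CTRL at the high dose, the median log2 differences were -1.24 and -1.29, which is the direction they were chosen for in CTRL.

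The gene called in QCKO was Fmn1. It was at 44.2 and 85.8 in QCKO low CHIR and at 162 and 225 in QCKO high CHIR, with a log2 difference of 1.62 ± 0.36 (limma, adjusted p = 0.0158). Leaving out either QCKO high CHIR library or the date 2 QCKO low CHIR library left 0 members called, against 1.47% to 1.59% of all genes. In α-catenin KO it was at 82.6 and 107 in low CHIR and at 193 and 188 in high CHIR, without overlap, and the log2 difference of 1.01 ± 0.36 did not pass (adjusted p = 0.179). Whether these differed from each other was not tested. In CTRL it was at 58.9 to 75.8 in low CHIR and at 108, 60.9 and 118 in high CHIR, a ratio of 1.44, near the upper edge of the window. In β-catenin KO, Fmn1 was at 181 to 185 in low CHIR. Its levels in α-catenin KO and QCKO high CHIR lay within 162 to 225, on both sides of that. Fmn1 therefore went against the label of no response to CHIR in QCKO. The gene called lower in α-catenin KO was ENSMUSG00000032006, without a symbol, at 117 and 174 in low CHIR and at 60.5 and 49.4 in high CHIR (log2 difference -1.37 ± 0.35, limma adjusted p = 0.0424). Leaving out any of the 4 α-catenin KO libraries left 0 members called, against 0.994% to 1.65% of all genes.

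In low CHIR the adhesion knockouts were also set against CTRL. By limma, 0 of the 81 genes passed against CTRL in α-catenin KO, and likewise 0 in QCKO. Of all genes, 0.00599% were called lower in α-catenin KO and 0% higher, and 0.00599% were called higher in QCKO and 0% lower. At an unadjusted p under 0.05 there were 0 of 81 in α-catenin KO and 2 of 81 in QCKO, against 0.659% and 1.55% of all genes, and edgeR and DESeq2 also called 0. The median log2 differences were 0.05 and -0.06, and the 95% interval lay within a log2 difference of 1 in either direction for 44 and 38 of the 81 genes. For the remaining genes the interval reached beyond 2-fold. Both comparisons share the CTRL libraries with that of β-catenin KO.

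In high CHIR, most members were lower in the adhesion knockouts than in β-catenin KO, and most did not lie above all CTRL libraries. The α-catenin KO libraries lay below all β-catenin KO libraries for 75 of the 81 genes and the QCKO libraries for 74, against 17.3% and 20.0% of all genes. They lay above all CTRL libraries for 32 and 35 genes, against 9.45% and 14.4%. The median ratios to CTRL were 1.34 and 1.30. These counts use the β-catenin KO and CTRL libraries that chose the genes and are given with no test. Symbols add a further selection. They came from the authors' tables of comparisons. Of the 22 members with a symbol, 17 were in those of CTRL against cadherin knockout in high CHIR, 12 in those of CTRL against α-catenin KO in high CHIR, and 1 in that of low against high CHIR in CTRL. At its own cut-offs in high CHIR, the paper reported only Ctnna1 as differentially expressed between CTRL and α-catenin KO. Between CTRL and QCKO it reported only Rasl11a. The authors' lists for these comparisons are longer, so a listing is not a call. Of the 22 with a symbol, 15 in α-catenin KO and 18 in QCKO lay above all CTRL libraries, and of the 59 without, 17 and 17. Tpm1 was at 3611 and 2650.3 in α-catenin KO high CHIR, at 1583 and 1616 in QCKO and at 1516 to 2087 in CTRL, so the adhesion knockouts lay on different sides of the top of the CTRL range.

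The promoters of 4 members that the low CHIR results turn on are shown as the 250 bases before the RefSeq start (GRCm38.p6), written in the direction of transcription. Capitals mark letters of the motifs searched on both strands. Fmn1 is at chr2:113327486-113327735 (+ strand), Tgfb2 at chr1:186705990-186706239 (- strand), Tpm1 at chr9:67049214-67049463 (- strand) and Paqr7 at chr4:134496511-134496760 (+ strand). For Fmn1 and Paqr7 the table holds 2 starts each, and the one listed first is shown.
Fmn1: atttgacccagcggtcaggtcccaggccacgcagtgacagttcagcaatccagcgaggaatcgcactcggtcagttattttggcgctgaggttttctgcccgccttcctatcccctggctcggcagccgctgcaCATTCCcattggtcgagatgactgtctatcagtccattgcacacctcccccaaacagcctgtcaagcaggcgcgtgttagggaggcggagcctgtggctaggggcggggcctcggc
Tgfb2: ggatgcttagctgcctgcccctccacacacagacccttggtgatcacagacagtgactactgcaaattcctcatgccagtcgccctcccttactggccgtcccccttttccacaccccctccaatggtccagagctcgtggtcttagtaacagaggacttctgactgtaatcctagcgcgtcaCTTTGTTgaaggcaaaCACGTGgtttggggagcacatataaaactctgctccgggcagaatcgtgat
Tpm1: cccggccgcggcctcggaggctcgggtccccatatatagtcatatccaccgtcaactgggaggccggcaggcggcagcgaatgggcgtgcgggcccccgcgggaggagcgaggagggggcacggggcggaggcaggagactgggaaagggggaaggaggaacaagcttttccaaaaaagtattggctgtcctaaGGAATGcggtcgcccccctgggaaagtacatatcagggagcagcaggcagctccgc
Paqr7: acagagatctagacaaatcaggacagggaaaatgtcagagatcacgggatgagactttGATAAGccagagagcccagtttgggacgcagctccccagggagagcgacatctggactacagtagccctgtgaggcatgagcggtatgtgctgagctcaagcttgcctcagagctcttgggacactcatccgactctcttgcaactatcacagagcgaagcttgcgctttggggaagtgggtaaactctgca

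The Tgfb2 window holds CTTTGTT, a form of the TCF/LEF motif, and CACGTG, an E-box. Fmn1 and, on the reverse strand, Tpm1 hold CATTCC, the TEAD motif, and Paqr7 holds GATAAG, the GATA motif. The other window of Fmn1 holds CTTTGTT. Among the members with a symbol, 15 of 22 had promoter windows, 29 in all. CTTTGAA or CTTTGTT was in 6 of the 29 windows (20.7%), from 6 genes, against 9.17% of all 32851 windows. CATTCC was in 4 (13.8%), against 12.6%, and TGACTCA, the AP-1 motif, in 0, against 4.46%. CAGGTG, an E-box bound by Snai and Zeb factors, was in 7 (24.1%), against 17.2%. CACGTG was in 3 (10.3%), against 6.02%, and GATAAG in 2 (6.90%), against 6.55%. Windows of 1 gene can overlap, and these matches describe letters only.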

How the data were processed

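Messenger RNA was measured in 20 bulk libraries. The signal values the authors deposited are gene counts scaled by a size factor for each library. All values in a library are whole steps of 1 scaled read, so reads were recovered for the count tests. The submitters' processing notes name STAR, Subread featureCounts, Salmon and DESeq2 and the builds GRCm38, mm10 and GRCh38, without saying which made this table. The authors' tables of DESeq2 comparisons (log2 ratios and p-values) were used only to pair identifiers with symbols, for 4316 genes. The member genes, gene lists and groupings by role were chosen with earlier results of these data known.

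Groups, doses and dates came from the sample labels, whose titles do not say what the date marks; nothing says that libraries of a date came from separate animals. Tests used limma 3.58.1 on log2(normalized count + 1) with the trend option, a mean for each group, all 20 libraries and genes with a mean of at least 10, which all 81 members passed. The comparison of β-catenin KO with α-catenin KO and QCKO and the fits with the date 1 library alone were added after the data were seen. The same date pairs libraries: in low CHIR the deviations of β-catenin KO and CTRL libraries from their group means correlated at 0.462, 0.354 and 0.487 over genes on dates 1, 2 and 3. Alternatives were other filters, pseudocounts, thresholds and normalization, the date block, edgeR 4.0.16, DESeq2 1.42.0 and leaving out each library. R was 4.3.3. The limma comparison of β-catenin KO with CTRL in low CHIR was tried on simulated counts without date effects. The simulation did not cover the rule, the date block, edgeR or DESeq2. Genes named were the 12 members with a symbol and the widest gap, members called in a test, the 3 on each side of the gap's threshold, others by role, and reference genes; unnamed identifiers were limited to a few. Of the lists prepared, NPC self-renewal (8 of 10 genes identified) and the NPC markers (6 of 6) reached 80%; all of the others were void for want of identifiers, and 0 members were in any list. In β-catenin KO against CTRL in low CHIR, 0 of the 8 self-renewal genes were called and their median log2 difference was -0.08.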

Additional observations from a re-analysis of the deposited data

How the results depend on the processing

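No median log2 difference over the 81 genes moved by more than 0.42, the members' median residual SD between libraries. That SD is a wide measure for a median over 81 genes, so small medians could change and still pass. For CHIR in α-catenin KO, the median ran from 0.04 to 0.26 with 1 library left out. Medians near 0 changed sign: that of α-catenin KO against CTRL in low CHIR from 0.05 to -0.06 without the date 3 CTRL library, and that of QCKO against CTRL from -0.06 to 0.05 with the replicate block and to 0.01 without the date 1 CTRL library. The number of members called was small and varied. Shares in brackets are of all genes tested that were called in either direction. Against CTRL in low CHIR, 1 member was called (0.0659%). A fit of only the groups compared called 0 (0%), the date as a replicate block 8 (0.443%) and DESeq2 18 (1.13%). With 1 library left out, 0 to 1 were called (0% to 0.318%). Against the adhesion knockouts in low CHIR, 4 were called (0.144%). With only the groups compared 0 were called (0%), with the replicate block 19 (0.941%), by edgeR 10 (0.623%) and by DESeq2 26 (2.16%). With 1 library left out, 0 to 4 were called (0.00599% to 0.636%). For CHIR in α-catenin KO, 1 was called (3.35%). The count was 0 without a filter on low values (1.63%), after quantile normalization (3.16%) and with only the groups compared (3.46%). By DESeq2 it was 2 (5.24%), and with 1 library left out 0 each time (0.994% to 1.65%). For CHIR in QCKO, 1 was called (3.95%). The count was 6 with only the groups compared (11.3%), 2 with the replicate block (7.53%) and 2 by DESeq2 (6.19%). With 1 library left out it was 0 to 1 (1.47% to 1.59%). The cause of these differences was not tested. The number of members also depended on the thresholds of the rule: 20 with a gap of 2, 34 with a CTRL ratio within 0.8 to 1.25, 708 with group means in place of lowest and highest libraries, 339 with the date 1 library alone, and 69 to 171 with 1 library left out. The replicate block changed no other count of members called by over 1.5 times. With 2 or 3 libraries a group, the median 95% interval of a member was ± 0.71 (log2) against CTRL in low CHIR.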
